A study of Mus musculus with 6 samples.

Results

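The 10 genes described here encode the enzymes that make fatty acids from acetyl groups and then lengthen and desaturate them: Acly, Acss2, Me1, Acaca, Fasn, Elovl6, Scd1, Scd2, Fads1 and Fads2. They were chosen by gene symbol, with earlier results of these data known, from a table of read counts for 24421 genes, and all 10 were present in it. Counts came from 6 libraries of total RNA from 4T1-tetL1(GLucAI) cells, a line made from 4T1, a breast carcinoma line of BALB/cfC3H mice. In all 6 libraries the cells carried the same integrated cassette. An EF1α promoter in it drives the Tet-On 3G transactivator constantly, and a tetracycline-inducible promoter that fires in both directions drives firefly luciferase on one side and a recoded mouse LINE-1 (L1) retrotransposon on the other. The L1 carries an interrupted Gaussia luciferase gene (GLucAI) that reports retrotransposition. The 3 libraries of the first group are titled untreated, although their treatment tag reads vehicle, and the 3 libraries of the second group came from cells given doxycycline at 400 ng/mL for 48 h. The line was a stable population and is not described as 1 clone. The 6 libraries include no doxycycline-treated cells without the cassette, so the drug and the induced cassette cannot be told apart in any difference below, and the transcript of the cassette was not analysed here. The study describes the 3 replicates of a group as biological, and the labels do not say how they were kept apart.

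Cells build fatty acids from cytosolic acetyl-CoA, which ATP citrate lyase (Acly) splits from citrate and acetyl-CoA synthetase (Acss2) makes from acetate. Acetyl-CoA carboxylase (Acaca) carboxylates it to malonyl-CoA, fatty acid synthase (Fasn) strings malonyl units into the saturated fatty acid palmitate with NADPH that malic enzyme (Me1) helps to supply, and Elovl6 extends palmitate to stearate. The stearoyl-CoA desaturases (Scd1, Scd2) then place the first double bond and yield monounsaturated fatty acids, while Fads1 and Fads2 desaturate the essential polyunsaturated fatty acids. Tumour cells commonly make fatty acids themselves for membrane growth, and most of these genes are known targets of the sterol regulatory element-binding proteins (SREBPs), transcription factors released from the endoplasmic reticulum when sterols are low.

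Since most of the members shifted in the same direction, the bases before their start sites were compared. The RefSeq promoter table used here (GRCm38.p6) held 8 start sites for 7 of the 10 genes, and it had no entry for Scd1, Scd2 and Fads1. The 250 bases before each start were searched on both strands for 4 motifs: the SREBP motif TCACNCCAC (N is any base), the E-box CACGTG, the CCAAT box CCAAT and the GC box GGGCGG. The 130 bases before the start are printed for Fasn and Acly, the members whose start was the same base in RefSeq and GENCODE, because they show how unlike the sequences before 2 members can be. RefSeq's span of Fasn reaches further upstream than this start. Capitals mark matches of the motifs on either strand.
Fasn, chr11:120824548-120824677, minus strand: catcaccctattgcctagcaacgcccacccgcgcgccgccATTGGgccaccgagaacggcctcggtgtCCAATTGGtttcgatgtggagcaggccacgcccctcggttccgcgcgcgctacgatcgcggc
Acly, chr11:100528001-100528130, minus strand: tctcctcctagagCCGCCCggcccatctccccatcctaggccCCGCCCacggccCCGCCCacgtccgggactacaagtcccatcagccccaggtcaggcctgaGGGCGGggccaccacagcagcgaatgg
The Fasn stretch held 3 CCAAT boxes, a pair of which overlap on opposite strands, and the Acly stretch held 4 GC boxes. Among all 8 windows the CCAAT box was found in 3 (genes Acss2, Fasn and Me1) and the GC box in 4 (genes Acly, Acss2, Fads2 and Me1), against 33.8% and 32.7% of all 32851 windows of that length. The SREBP motif and the E-box matched in 0 of the 8 windows, against 1.1% and 6.0% of all windows, which says only that these letters are not in these 250 bases. The window of Acaca lies before an internal start, 65766 bases from the start that GENCODE gives for the gene. The Me1 window with the CCAAT box also lies before an internal start (RefSeq minus GENCODE position -8676), and the other Me1 window held no CCAAT box. For Fads2 that difference was -243, so its only GC box (first base -186) lies inside the GENCODE span of the gene. For Acss2 it was 95, and its CCAAT box (first base -73) lies inside the span as well. A match of letters was taken as a description and not as a binding site.

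The 6 libraries held between 31653464 and 43631312 counted reads and 15418 to 15685 genes with a count. Levels are given as normalised counts in CPM, the counts of a gene per 1000000 counts of its library, after scaling the libraries to each other by edgeR's TMM factors, and errors are SD over n = 3 libraries unless stated. A level of 3 counts, taken as the limit of detection, corresponded to 0.06832 to 0.09435 CPM, and covers counting error only. Of all genes, 13084 had enough counts to be tested with edgeR's quasi-likelihood test, and a gene was called when its Benjamini-Hochberg adjusted p over these genes was under 0.05. Epithelial markers, which the carcinoma label calls for, were present, with summed levels of 1838 to 1925 CPM in untreated and 1789 to 2023 CPM in doxycycline libraries, and 1 of the 8 was called, Krt19 (log2 fold change -0.31, edgeR adjusted p = 0.00782, lost without untreated library 2 or doxycycline library 3 with adjusted p up to 0.0799). The other 7 had estimates above 0, as did 6641 of the 13084 genes tested. In 3 of them (Epcam, Cldn4 and Cldn7) every doxycycline library was above every untreated one, as in 10.1% of all genes tested. These 3 were not called (edgeR adjusted p = 0.336, 0.0858 and 0.23). Of 8 adipocyte markers 2 had enough counts to be tested and 0 were called, and the defining adipocyte genes Adipoq and Plin1 had 0 to 0.07347 CPM in every library. Leukocyte and endothelial markers summed to at most 1.053 and 0.8621 CPM in any library. Fibroblast markers summed to 36.88 to 39.9 CPM in untreated and 28.94 to 30.22 CPM in doxycycline libraries, most of it Pdgfra (36.74 ± 1.37 and 27.85 ± 0.669 CPM, log2 fold change -0.40, edgeR adjusted p = 0.000952), with Col3a1 and Lum at 0. The part of this marker in the results below was not tested. In bulk RNA, a change in the share of cells that express a gene and a change in its RNA per cell cannot be told apart.

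All 10 enzymes passed the filter on low counts, and 8 of them rose with doxycycline while 0 fell, with edgeR and with DESeq2 and limma voom alike. Across all genes tested, 0.925% were called higher and 2.16% were called lower. Since the members were chosen with earlier results of these data known, such shares are a background and not a test of the set. The enzymes that rose were Acly, Acss2, Acaca, Fasn, Elovl6, Scd1, Scd2 and Fads2, and the 2 that did not pass were Me1 and Fads1. The changes were small: the median log2 fold change of the 10 was 0.273, with a range of 0.16 to 0.44, against a median of 0.002 over all genes tested. All 10 estimates were above 0 with an unadjusted p under 0.05, as were 7.25% of all genes tested. In 9 of the 10 every doxycycline library lay above every untreated library, an arrangement found in 10.1% of all genes tested.

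**Figure D1:**
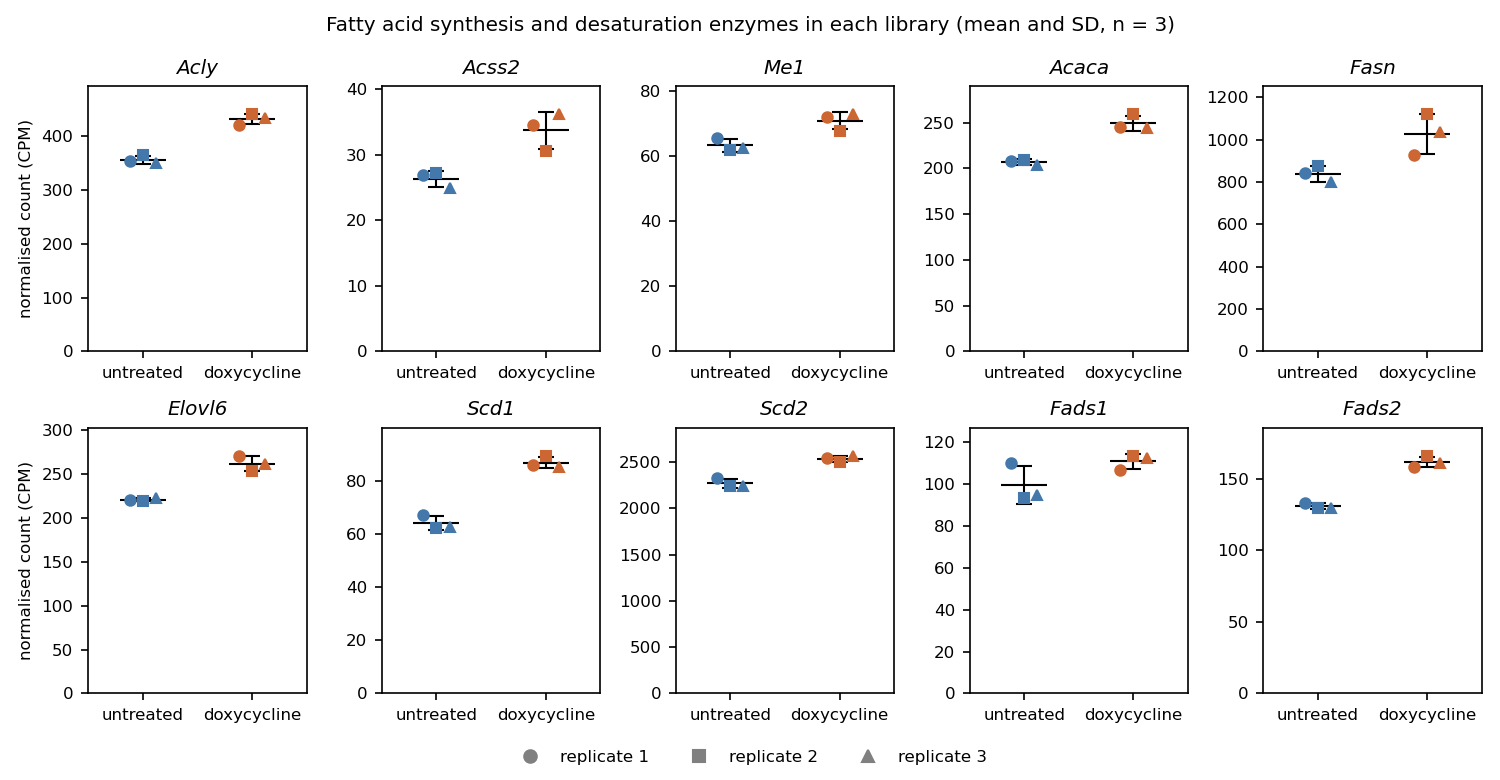
Normalised counts (CPM, linear axis from 0) of each of the 10 enzymes in the 3 untreated and 3 doxycycline libraries. Points are libraries, marked by replicate number, and bars give the mean and SD. In 9 of 10 panels the groups do not overlap, and Fads1 is the exception.

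The acetyl-CoA-supplying enzymes both rose. Acly had 354.3, 365.4 and 349.9 CPM in untreated libraries 1 to 3 and 422, 441 and 434 CPM in doxycycline libraries 1 to 3. The doxycycline libraries were all higher, and the gap between the groups was far wider than the spread within either. The mean went from 356.5 ± 7.99 to 432.3 ± 9.63 CPM (log2 fold change 0.28 with SE 0.04 and adjusted p = 0.000525 by edgeR). Acss2, the acetate-using enzyme, was read at 26.92, 27.22 and 24.99 CPM in untreated and 34.5, 30.66 and 36.18 CPM in doxycycline libraries. The groups did not overlap, but doxycycline library 2 lay much closer to the untreated libraries than the other doxycycline libraries did. The log2 fold change of Acss2 was 0.36 (SE 0.08, edgeR adjusted p = 0.00897), and the call was lost without untreated library 3 (0.32, adjusted p = 0.0954) or without doxycycline library 3 (0.30, adjusted p = 0.0806). Acly lies on chromosome 11 from 100476352 to 100528000 and Acss2 on chromosome 2 from 155518043 to 155562743 in GRCm38. The Acss2 span overlaps Gss, Ggt7 and the antisense gene Acss2os on the other strand, and the pseudogenes Mipep-ps and Gm20637 on its own. Me1, Acaca and Elovl6 also overlap a gene on the other strand (A330041J22Rik, Gm11437 and Gm35986). The strand setting of the counting is not given in the sources used here.

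Me1 makes NADPH in the cytosol while it turns malate into pyruvate. It had 65.65, 61.93 and 62.62 CPM in untreated and 72.02, 67.96 and 72.93 CPM in doxycycline libraries. Every doxycycline library was above every untreated one, the nearest pair being doxycycline library 2 and untreated library 1. The log2 fold change was 0.16 (SE 0.06, 95% confidence interval 0.05 to 0.28), which did not pass the test over all genes (edgeR adjusted p = 0.128). Me1 passed without doxycycline library 2 (0.19, adjusted p = 0.0247), and also after a correction for GC content and length that was added once the data had been seen (0.18, adjusted p = 0.0163). These settings also raised the number of genes called higher over all genes, from 121 to 269 and 447. Me1 lies on chromosome 9 from 86581363 to 86695914. Of its 3243 stretches of 50 transcript bases, 858 (26.46%) also occur in transcripts of the annotated genes Gm7049 and Gm7329, so its counts can depend on how reads with several matching places were handled, which the sources used here do not give.

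The enzymes that build palmitate rose together. Acaca had 208.5, 209.2 and 203.8 CPM in untreated and 245.1, 259.1 and 244.5 CPM in doxycycline libraries. Its groups were well apart, with doxycycline library 2 the highest. The mean of Acaca went from 207.2 ± 2.93 to 249.6 ± 8.23 CPM (log2 fold change 0.27 with SE 0.04 and adjusted p = 0.000945 by edgeR). Fasn, the multidomain synthase that Acaca feeds, was read at 843.8, 875.1 and 798.0 CPM in untreated and 930.1, 1119.5 and 1035.2 CPM in doxycycline libraries. The groups did not overlap, yet the doxycycline libraries were spread more widely for Fasn than for Acaca, and doxycycline library 1 lay close above the untreated group. The mean of Fasn went from 839 ± 38.8 to 1028 ± 94.9 CPM (log2 fold change 0.29 with SE 0.06 and adjusted p = 0.00417 by edgeR), which was lost without untreated library 3 (0.26, adjusted p = 0.0713). Acaca and Fasn both lie on chromosome 11, Acaca from 84129635 to 84401651 on the plus strand and Fasn from 120805958 to 120825166 on the minus strand. Fasn shares none of its 50-base stretches with another annotated transcript, whereas 4974 of 8977 stretches of Acaca (55.41%) also occur in Gm5182, so the level of Acaca is uncertain for the same reason as that of Me1.

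Elovl6, the elongase that extends palmitate, rose as well. It had 221.1, 219.5 and 222.4 CPM in untreated libraries, the tightest group of any member relative to its level. The doxycycline libraries had 270.2, 253.4 and 261.9 CPM, and all lay above the untreated libraries. The Elovl6 estimate was 0.24 on the log2 scale (SE 0.04, edgeR adjusted p = 0.00217). The gene lies on chromosome 3 from 129532386 to 129638495.

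The stearoyl-CoA desaturases showed the highest and the lowest change among the enzymes that rose. Scd1 had 67.02, 62.23 and 62.62 CPM in untreated and 85.83, 89.09 and 85.26 CPM in doxycycline libraries. The groups were far apart and the doxycycline libraries lay close together. The mean of Scd1 went from 63.96 ± 2.66 to 86.73 ± 2.07 CPM, a rise of 35.6% or 0.44 on the log2 scale (SE 0.05, edgeR adjusted p = 3.07e-05). Scd2, its neighbour on chromosome 19 and an isoform used in many tissues other than adult liver, had 2323.2, 2238.6 and 2241.3 CPM in untreated and 2537.9, 2501.6 and 2559.6 CPM in doxycycline libraries. These groups did not overlap either, but the shift was smaller. The mean of Scd2 went from 2268 ± 48.1 to 2533 ± 29.3 CPM (log2 fold change 0.16 with SE 0.04 and adjusted p = 0.0326 by edgeR). The call for Scd2 was fragile: it was lost without any single untreated library (adjusted p = 0.0728, 0.148 and 0.24 without untreated libraries 1, 2 and 3), without doxycycline library 3 (adjusted p = 0.154) and with scaling by library size alone (0.15, adjusted p = 0.0654). Scd1 occupies bases 44394450 to 44407709 and Scd2 bases 44293676 to 44306864 of chromosome 19. Of their 50-base stretches, 4.66% and 4.01% occur in transcripts of another gene, mostly in each other and in the related Scd3 and Scd4.

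The desaturases of polyunsaturated fatty acids are neighbours on chromosome 19, Fads2 at 10062765 to 10101503 and Fads1 at 10182877 to 10196874. Fads2, which takes the first desaturation step, had 133, 129.7 and 129.7 CPM in untreated and 158.4, 165.5 and 160.7 CPM in doxycycline libraries. Both groups were tight and clearly apart. The mean of Fads2 went from 130.8 ± 1.89 to 161.5 ± 3.63 CPM (log2 fold change 0.30 with SE 0.05 and adjusted p = 0.000304 by edgeR). Fads1, which acts later in the same route, had 110.1, 93.55 and 95.01 CPM in untreated and 106.9, 113.3 and 112.6 CPM in doxycycline libraries. It was the member whose groups overlapped, because untreated library 1 lay above doxycycline library 1. The log2 fold change of Fads1 was 0.16 (SE 0.06, 95% confidence interval 0.03 to 0.28) and did not pass the test (edgeR adjusted p = 0.172). Without untreated library 1 the estimate for Fads1 was 0.23 and passed narrowly (adjusted p = 0.0498), and it also passed with the correction for GC content and length (0.16, adjusted p = 0.0469). With that correction 447 genes were called higher over all genes, against 121 without it.

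**Figure D2:**
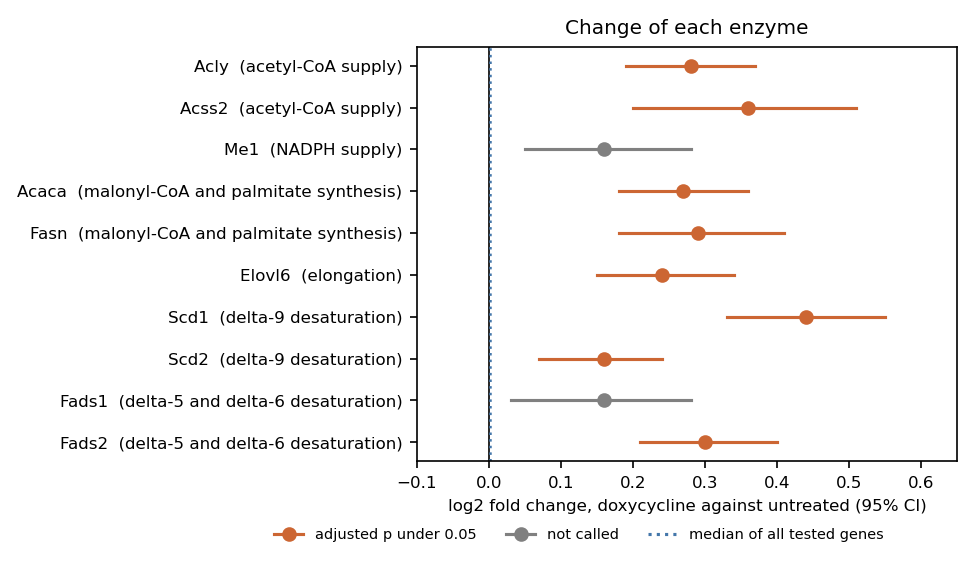
Log2 fold change of doxycycline against untreated libraries for each enzyme, with its 95% confidence interval (horizontal axis, log2 units), ordered by step of the pathway. The solid line marks no change and the dotted line the median of all tested genes (0.002). Scd1 has the highest estimate (0.44), and Me1, Scd2 and Fads1 share the lowest (0.16).

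The calls of Acly, Acaca, Elovl6, Scd1 and Fads2 held when any 1 of the 6 libraries was left out, with adjusted p-values by edgeR of at most 0.0173, 0.024, 0.0288, 0.00138 and 0.00911. The number of members called was 5 without untreated library 3, the lowest of these 6 refits, and 9 without doxycycline library 2, the highest. Over all genes, 44 and 269 were called higher in these refits, against 121 with all 6 libraries. In both of these refits the member counts moved in the same direction as the counts over all genes. Without untreated library 1 or doxycycline library 1 the members called stayed at 8, while 58 and 207 genes were called higher.

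Because the members differ in transcript length, their levels were compared per kilobase (kb) of the longest GENCODE transcript matched to a RefSeq entry. Scd2 was by far the most abundant at 415.7 ± 8.82 CPM per kb in untreated and 464.4 ± 5.37 CPM per kb in doxycycline libraries. Fasn followed at 83.48 ± 3.86 and Acly at 80.56 ± 1.81 CPM per kb in untreated libraries, and the ranges of this pair overlapped. Below them came Fads2 (41.53 ± 0.6), Elovl6 (37.13 ± 0.245), Fads1 (28.77 ± 2.64), Acaca (22.95 ± 0.324), Me1 (19.26 ± 0.602), Scd1 (13.24 ± 0.55) and Acss2 (8.999 ± 0.412), all in untreated CPM per kb. No other neighbours in this order had overlapping ranges in the untreated group, and the order was identical in the doxycycline group. The places of Acaca and Me1 in it are uncertain, because 55.41% and 26.46% of their 50-base stretches also occur in other transcripts. Scd2 alone gave 52.3% to 53.5% of the members' counts in untreated and 49.6% to 52.2% in doxycycline libraries. All 10 members together took 0.4382%, 0.426% and 0.4224% of the counts of untreated libraries 1 to 3 and 0.4885%, 0.4989% and 0.4979% of those of doxycycline libraries 1 to 3.

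**Figure D3:**
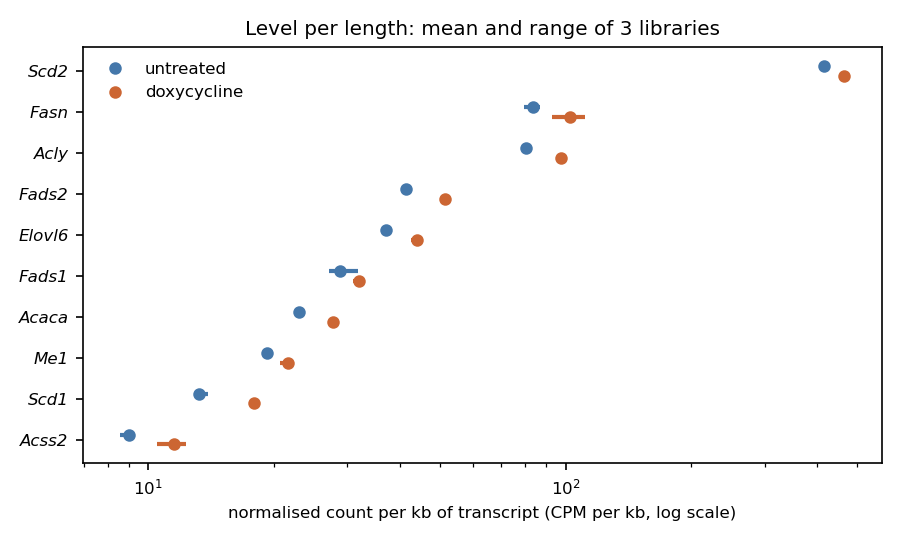
Level of each enzyme per kb of transcript (CPM per kb, log axis), as the mean (point) and range (line) of 3 libraries a group. Scd2 stands above the rest at 415.7 CPM per kb in untreated libraries, and Acss2 is lowest at 8.999 CPM per kb. The order of the enzymes is the same in both groups. The levels of Acaca and Me1 can depend on how reads with several matching places were handled, which is not given.

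Whether paired enzymes moved alike was asked with the ratio of their normalised counts within each library, for 4 pairs. The ratio of Scd2 to Scd1 was 34.66, 35.97 and 35.79 in untreated and 29.57, 28.08 and 30.02 in doxycycline libraries. The groups did not overlap and the mean log2 ratio was lower with doxycycline (difference -0.28, 2-sided exact permutation test, p = 0.1, adjusted over the 4 pairs 0.2). With 3 libraries a group there are 20 assignments, and 0.1 is the smallest p the test can give. The ratio of Fads1 to Fads2 was 0.8276, 0.7211 and 0.7326 in untreated and 0.6748, 0.6844 and 0.7009 in doxycycline libraries, again without overlap (difference -0.14, exact permutation p = 0.1, adjusted 0.2), and the difference was -0.082 without untreated library 1. For the acetyl-CoA-supplying enzymes, the ratio of Acly to Acss2 ran from 13.16 to 14.0 in untreated and from 11.99 to 14.38 in doxycycline libraries, and the groups overlapped (difference -0.08, exact permutation p = 0.4, adjusted 0.5333). Without 1 library the Acly to Acss2 difference ran from -0.028 (doxycycline library 3) to -0.159 (doxycycline library 2). For the palmitate-building enzymes, the ratio of Fasn to Acaca ran from 3.916 to 4.183 in untreated and from 3.794 to 4.322 in doxycycline libraries (difference 0.02, exact permutation p = 0.7, adjusted 0.7), and the sign of this difference turned without untreated library 3 (-0.002) or doxycycline library 2 (-0.014). No pair could pass the threshold in a design of this size, so these values are a description of the libraries. Levels of 2 genes set side by side in this way are not corrected for length, so it is the shift of a ratio and not its size that can be read.

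The genes around the pathway were followed in 7 related lists. Of 14 genes for carbon supply, NADPH supply and cofactors, 12 had enough counts to be tested and 1 rose with edgeR and with limma voom, and the median log2 fold change of the tested genes was 0.047. DESeq2 called 2, the other being Slc25a1, the mitochondrial citrate carrier (edgeR log2 fold change 0.20, adjusted p = 0.0605), which is named here after its values were seen. The gene that rose with all tools was Aacs, which activates acetoacetate in the cytosol for lipid synthesis. It had 75.79, 71.85 and 71.27 CPM in untreated and 88.03, 96.56 and 91.61 CPM in doxycycline libraries, with no overlap (log2 fold change 0.34 with SE 0.05 and adjusted p = 0.000682 by edgeR). Acacb, the carboxylase at the mitochondrial surface that restrains fatty acid import, was low at 6.361 ± 0.733 CPM in untreated and 6.568 ± 0.425 CPM in doxycycline libraries (log2 fold change 0.04, 95% confidence interval -0.23 to 0.32, edgeR adjusted p = 0.915). Thrsp, a lipogenic gene of liver and fat, had too few counts to be tested, with at most 0.1366 CPM in any library.

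Of 19 other genes of elongation and desaturation, 15 were tested and 0 were called in either direction with edgeR, DESeq2 or limma voom. The median log2 fold change of the 15 was 0.058. With edgeR, 6 of the 15 had an unadjusted p under 0.05, against 16.2% of all genes tested in either direction. The estimates of these 6 lay on both sides of 0, from -0.45 to 0.50. The elongases Elovl2, Elovl3 and Elovl4 had 0 counts in every library. Elovl5, the elongase of polyunsaturated fatty acids, had 121.8 ± 1.96 CPM in untreated and 122.0 ± 10.6 CPM in doxycycline libraries (log2 fold change 0.00, 95% confidence interval -0.11 to 0.12, edgeR adjusted p = 0.987). Fads3, the third gene of the Fads cluster, had 77.14 ± 3.25 and 83.41 ± 1.89 CPM (log2 fold change 0.11, edgeR adjusted p = 0.289). The related desaturase genes Scd3 and Scd4 had few counts, with 1.626 ± 0.222 and 2.347 ± 0.592 CPM in untreated libraries. Their log2 fold changes of 0.22 for Scd3 and 0.50 for Scd4 did not pass the test (edgeR adjusted p = 0.709 and 0.22).

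The 3 lists of neighbouring routes held no called gene with edgeR, DESeq2 or limma voom, and their counts at an unadjusted p under 0.05 are to be read beside the 16.2% of all genes tested. For the 7 genes of mitochondrial fatty acid synthesis, all tested, 1 had an unadjusted p under 0.05 and the median log2 fold change was 0.003. For fatty acid activation, uptake and binding, 13 of 14 genes were tested, 1 had an unadjusted p under 0.05 and the median was 0.036, and the fatty acid transporter Cd36 had 0 counts in every library. For fatty acid oxidation, 19 of 22 genes were tested, 2 had an unadjusted p under 0.05 and the median was -0.021. Cpt1a, which admits fatty acids to the mitochondrion for oxidation, had 41.1 ± 2.41 CPM in untreated and 40.51 ± 1.7 CPM in doxycycline libraries (log2 fold change -0.02, 95% confidence interval -0.16 to 0.11, edgeR adjusted p = 0.916).

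Among 17 transcriptional and kinase regulators of the pathway, 15 were tested, 2 rose and 0 fell, and the median log2 fold change was 0.003. Srebf1 encodes the SREBP isoforms best known for driving fatty acid synthesis. Its level was 87.51, 85.22 and 81.55 CPM in untreated and 79.04, 87.8 and 87.8 CPM in doxycycline libraries. The groups overlapped fully, with a log2 fold change of 0.00 (95% confidence interval -0.11 to 0.12, edgeR adjusted p = 0.987). Srebf2, the isoform tied mainly to cholesterol synthesis, had 162.5 ± 1.52 CPM in untreated and 184.5 ± 11.1 CPM in doxycycline libraries (log2 fold change 0.18, edgeR adjusted p = 0.0399), a call lost without untreated library 1, 2 or 3 or doxycycline library 3 and with scaling by library size alone (adjusted p up to 0.211). Insig1, a sterol-sensing retention protein that is itself a target of SREBPs, had 127.3, 128.1 and 133.0 CPM in untreated and 172.4, 168.1 and 166.8 CPM in doxycycline libraries, far apart (log2 fold change 0.39 with SE 0.05 and adjusted p = 1.76e-05 by edgeR). Scap, the escort of the SREBPs, had 92.69 ± 1.72 and 100.1 ± 10.9 CPM (log2 fold change 0.11, edgeR adjusted p = 0.393).

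The enzymes of cholesterol synthesis, which share the acetyl-CoA supply and the SREBPs with fatty acid synthesis, were set beside the 10 members. Of these 19 genes, all tested, 16 rose and 0 fell, with a median log2 fold change of 0.485 against 0.273 for the fatty acid enzymes. The smallest p-values belonged to Fdps (log2 fold change 0.67, edgeR adjusted p = 3.27e-08) and Hmgcs1 (0.54, adjusted p = 2.44e-07). Scd1, at 0.44, was the member of the fatty acid list nearest to the median of the cholesterol list. The difference between the medians of the lists was not tested.

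**Figure D4:**
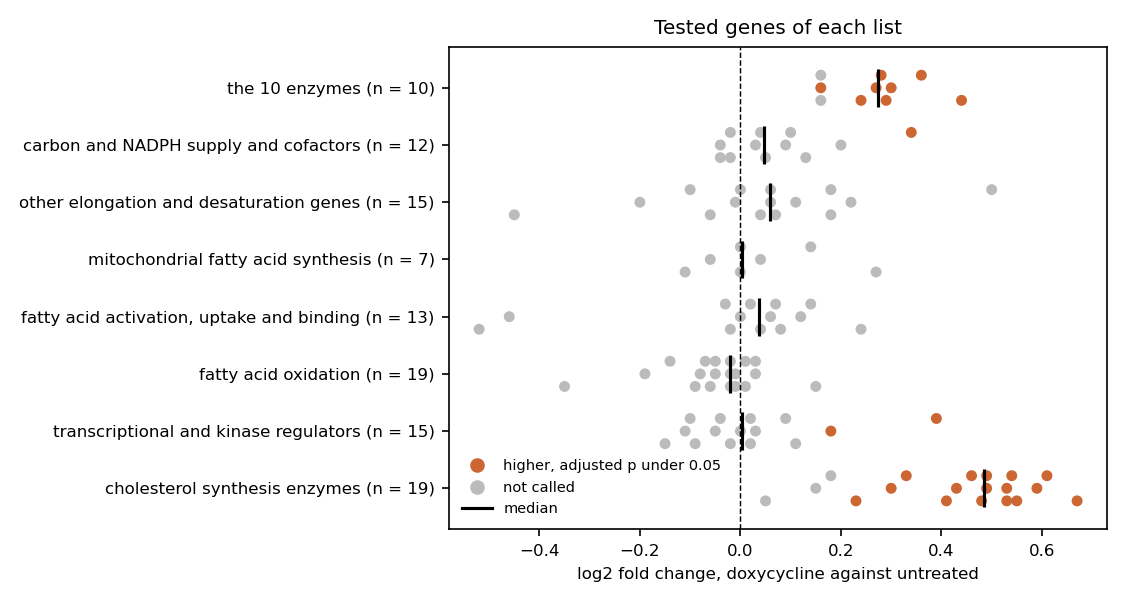
Log2 fold change of doxycycline against untreated libraries (horizontal axis) for every tested gene of the 10 enzymes and of 7 related lists, with list medians as vertical bars. Coloured points passed the test as higher, grey points were not called, and vertical offsets within a row carry no value. The medians of the 10 enzymes (0.273) and of cholesterol synthesis (0.485) lie right of the other lists, whose medians run from -0.021 to 0.058.

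The profile of the 10 members over the 6 libraries, taken as the mean of their standardised log2 CPM, was -0.57, -0.91 and -1.05 in untreated libraries 1 to 3 and 0.74, 0.85 and 0.95 in doxycycline libraries 1 to 3. The untreated libraries were all below 0 and the doxycycline libraries all above it. The 5 genes outside all lists whose log2 CPM followed this profile most closely were Tars, Larp1, Nubp1, Utp20 and Ccnt1, with Pearson's r of 0.993 to 0.995 over 6 libraries. The points share their libraries and their group difference, so the values describe likeness only. Of these genes, Tars (threonyl-tRNA synthetase, log2 fold change 0.19, edgeR adjusted p = 0.0135) and Utp20 (a factor of ribosome assembly, 0.25, adjusted p = 0.00167) rose, and the other three were not called.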

How the data were processed

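Total RNA was depleted of ribosomal RNA and made into libraries with a dUTP kit that keeps strand. The authors aligned reads with STAR to mm10 (GRCm38) and obtained gene counts from featureCounts of Subread 1.6.2, after bcl2fastq 2.20, per the labels and the submitters' processing notes. They deposited raw read counts, not normalised, with replicates apart. The strand setting and the handling of reads with several matching places are not given in the sources used here. All 6 columns were matched to a sample, and the groups came from the sample titles.

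Counts were tested with edgeR 4.0.16 in R 4.3.3 (quasi-likelihood, robust, TMM, filterByExpr, group as the only term), with Benjamini-Hochberg adjustment at 0.05 over 13084 genes. The study used DESeq2. The standard error is the absolute log2 fold change over the square root of the F statistic. Totals ran from 31653464 to 43631312 counts, and the biological coefficient of variation was 6%. Replicate pairs differed beyond sampling noise (chi-square per degree of freedom 6.14 to 22.06), so each library counted once. Alternatives were other scalings and filters, the replicate block, DESeq2 1.42.0, limma voom 3.58.1, leaving out each library and, added after the data were seen, a loess correction for GC content and length, for which 96.3% of tested genes had values. Ratios were tested by exact permutation of the libraries with scipy 1.17.1. Lengths, coordinates and shared 50-base stretches came from RefSeq and GENCODE annotation of GRCm38. The main edgeR fit was also run on simulated counts. The alternatives and the permutation of ratios were not run on simulated counts.

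The members and the gene lists were chosen with earlier results of these data known. The text names all 10 members, up to 5 called genes of each related list (3 for cholesterol synthesis, 1 of which is not reported here), a fixed set of genes whatever their values, and the 5 genes most alike in pattern. Sequences of proteins were not analysed here.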

Additional observations from a re-analysis of the deposited data

How the results depend on the processing

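All 10 members kept their direction under all 15 alternatives. The calls of Acly, Acaca, Elovl6, Scd1 and Fads2 held in all 15, and those of Acss2, Fasn and Scd2 were lost in 2, 1 and 5. Between 5 and 9 members were called when 1 library was left out, 5 of them without untreated library 3, and 10 with the GC content and length correction. The members' median ran from 0.252 to 0.288 over the refits that left out 1 library.

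Counts over all genes moved more. Genes called higher numbered 121 in the reported fit, 210 with no filter, 447 with the GC content and length correction, and 44 to 269 with 1 library left out (44 without untreated library 3, 269 without doxycycline library 2). Genes called lower numbered 283, 439 with no filter, 452 with that correction, and 116 to 487 with 1 library left out (116 and 487 without the same libraries). The cause was not tested. Over these refits the medians ran from 0.453 to 0.485 for cholesterol synthesis, -0.064 to -0.012 for fatty acid oxidation and -0.028 to 0.085 for mitochondrial fatty acid synthesis. The log2 ratio of Fasn to Acaca turned sign without untreated library 3 (-0.002) and without doxycycline library 2 (-0.014), within a range of -0.014 to 0.08 over these refits. The median log2 fold change of all genes lay between -0.007 and 0.015 under every alternative.

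The labels do not say whether the replicate numbers pair the libraries. Deviations of same-numbered libraries correlated at -0.04, -0.004 and 0.018 over the tested genes, which showed no pairing but cannot exclude it. The share of counts from the gene Rn45s was highest in library 2 of both groups (11.04% in untreated and 12.11% in doxycycline). With the replicate block 8 members, 118 genes higher and 300 lower were called, and among the members and the called genes of the related lists Srebf2 (adjusted p = 0.0504) lost its call. The members had at least 908 counts in every library.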
